A study of Homo sapiens with 12 samples.

Results

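The genes described here are the enzymes of sterol and fatty acid synthesis and their regulators, in LNCaP, a human prostate cancer cell line derived from a lymph node metastasis. Members were the 34 gene symbols of the cholesterol pathway (from acetyl-CoA thiolase to 7-dehydrocholesterol reductase), of fatty acid synthesis, desaturation and elongation, and of the machinery that senses sterols, matched to probes by the platform's gene symbol. A probe was found for 33 members (50 probes in all), and 32 of them were among the 12420 genes tested. They comprised 17 genes of the sterol arm, 11 of the fatty acid arm and 4 regulators. FDFT1, which makes squalene, is not analysed here, and STARD4, a sterol carrier, lay below the filter on dim probes.

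LNCaP cells grown in medium with 10% serum were transfected with Lipofectamine2000, either with pcDNA3.1_FoxA1, a plasmid for the transcription factor FOXA1 (6 arrays), or with pcDNA3.1_GFP, which carries green fluorescent protein (6 arrays). The labels give 3 μM of plasmid, and total RNA was taken at 48 h and read on Illumina bead arrays (HumanHT-12). Both groups therefore share the cell line, the transfection and the backbone. The expression is transient, untransfected cells stay in the culture, and every array comes from 1 line. Arrays are called by their labelled group and replicate number. Whether replicates came from separate cultures is not in the labels, so a p-value here reflects a spread that may be technical.

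All values are log2 intensities from the deposited normalized table. A difference is FOXA1 minus GFP on that scale, and levels of different probes are not set against each other. Array medians before normalization lay between 7.31 and 7.63, and between 32.8% and 36.4% of probes were above background on an array. The FOXA1 probe read 13.42 ± 0.13 (SD, n = 6) on FOXA1 arrays and 13.30 ± 0.16 (SD, n = 6) on GFP arrays. The groups overlapped, and the difference of 0.13 (SE 0.09, 95% interval -0.07 to 0.32) did not pass (exact permutation p = 0.165, two-sided). The labelled overexpression was therefore not detectable with this probe, whose position in the transcript is not given. Of 10 luminal prostate markers, 9 had a probe (KLK3, KLK2, TMPRSS2, FOLH1, HOXB13, KRT8, KRT18, STEAP2 and ACP3), and all 9 were above background on 12 of 12 arrays. Of 10 basal, leukocyte, stromal and endothelial markers, 8 had a probe and none was above background on more than 2 arrays.

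Cholesterol is built from acetyl-CoA through mevalonate, farnesyl diphosphate and squalene, and fatty acids are built from the same precursor through malonyl-CoA. Both routes are driven by the SREBP transcription factors, encoded by SREBF1 and SREBF2, which are held in the endoplasmic reticulum by INSIG proteins when sterols are plentiful and carried by SCAP to the Golgi for cleavage when they are not. SREBP-1c acts mainly on fatty acid genes and SREBP-2 mainly on cholesterol genes. In prostate cancer cells androgen receptor signalling, in which FOXA1 acts as a pioneer factor, is known to raise SREBP activity and FASN.

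SREBPs bind sterol regulatory elements, usually beside CCAAT boxes that bind NF-Y, so the promoters of the members were searched for both sequences. RefSeq promoters (GRCh38.p14, 250 bases before to 50 after the start) were found for 30 of 34 members, 40 promoters in all. ACAT2, FDFT1, SQLE and FASN had none and were not searched. The element TCACNCCAC, on both strands, was in 1 of 40 member promoters (2.5%) and in 396 of 35116 promoters of all genes (1.13%). The one match lay in SREBF2, and 0 of 20 sterol arm and 0 of 15 fatty acid arm promoters held these letters. CCAAT or its reverse complement ATTGG, which does not overlap the element in the sequences shown, was in 27 of 40 member promoters (67.5%), in 15 of 20 of the sterol arm (75%), in 9 of 15 of the fatty acid arm (60%) and in 12155 of all promoters (34.6%). Promoters of the same gene can overlap. Counted by gene, the box was in 23 of 30 members (76.7%) and in 4363 of 9946 tested genes with a promoter (43.9%). The 250 bases before the start are printed 5′ to 3′ on the gene's strand for SREBF2, as the one match, and for HMGCS1 and SCD, the member of each arm that followed that arm most closely across arrays. These were chosen after the matches and correlations were seen.
SREBF2 (chr22:41832855-41833104, plus strand): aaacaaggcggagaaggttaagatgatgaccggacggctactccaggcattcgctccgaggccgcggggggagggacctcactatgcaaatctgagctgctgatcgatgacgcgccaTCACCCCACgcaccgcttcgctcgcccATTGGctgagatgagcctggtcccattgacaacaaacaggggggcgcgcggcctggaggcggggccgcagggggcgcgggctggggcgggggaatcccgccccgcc
HMGCS1 (chr5:43313413-43313662, minus strand): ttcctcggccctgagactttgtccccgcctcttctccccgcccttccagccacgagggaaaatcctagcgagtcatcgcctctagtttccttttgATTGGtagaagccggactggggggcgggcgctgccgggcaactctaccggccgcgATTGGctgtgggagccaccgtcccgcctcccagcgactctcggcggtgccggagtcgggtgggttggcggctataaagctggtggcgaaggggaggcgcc
SCD (chr10:100346983-100347232, plus strand): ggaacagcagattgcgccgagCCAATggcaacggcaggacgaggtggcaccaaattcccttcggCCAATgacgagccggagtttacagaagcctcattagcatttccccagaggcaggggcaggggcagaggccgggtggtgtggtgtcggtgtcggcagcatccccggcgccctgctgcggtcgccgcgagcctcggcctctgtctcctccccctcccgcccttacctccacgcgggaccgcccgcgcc
Capitals mark the sterol regulatory element, which begins at position -133 in SREBF2, and the CCAAT boxes, counted from the transcription start. The box begins at -106 in SREBF2, at -155 and -100 in HMGCS1, and at -229 and -186 in SCD. SREBF2 and HMGCS1 carry the box in reverse and SCD carries it forward. A match is a description of the letters in this window only.

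The first question was whether any step differed between FOXA1 and GFP arrays. No member differed past the threshold (limma, Benjamini-Hochberg adjusted p under 0.05 over all genes tested), and neither did any other gene (0 of 12420, 0%). At an unadjusted p under 0.05 limma gave 0 of 32 members and 203 genes (1.63% of all, 94 or 0.757% higher and 109 or 0.878% lower). The groups overlapped for every tested member, and for all but 8 of the 12420 genes (0.0644%). The mean was higher on FOXA1 arrays for 24 of 32 members and for 53.8% of all genes, and the median difference was 0.10 for the members and 0.0088 for all genes. Without FOXA1 4 the members' median was 0.06, without GFP 5 it was 0.07, and without GFP 3, FOXA1 3 and FOXA1 4 together it was 0.03. In whole-culture RNA, fewer cells of a kind and less RNA per cell cannot be told apart.

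The intervals describe the difference in whole-culture RNA, each for a single gene. They rest on the same spread between arrays, which may be technical, so they may be too narrow. Over the members, the 95% interval reached a median of 0.27 to either side, a factor of 1.21. The interval excluded a 1.5-fold difference in either direction for 25 of 32 members and a 2-fold difference for 31 of 32. FADS2 was the exception.

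**Figure D1:**
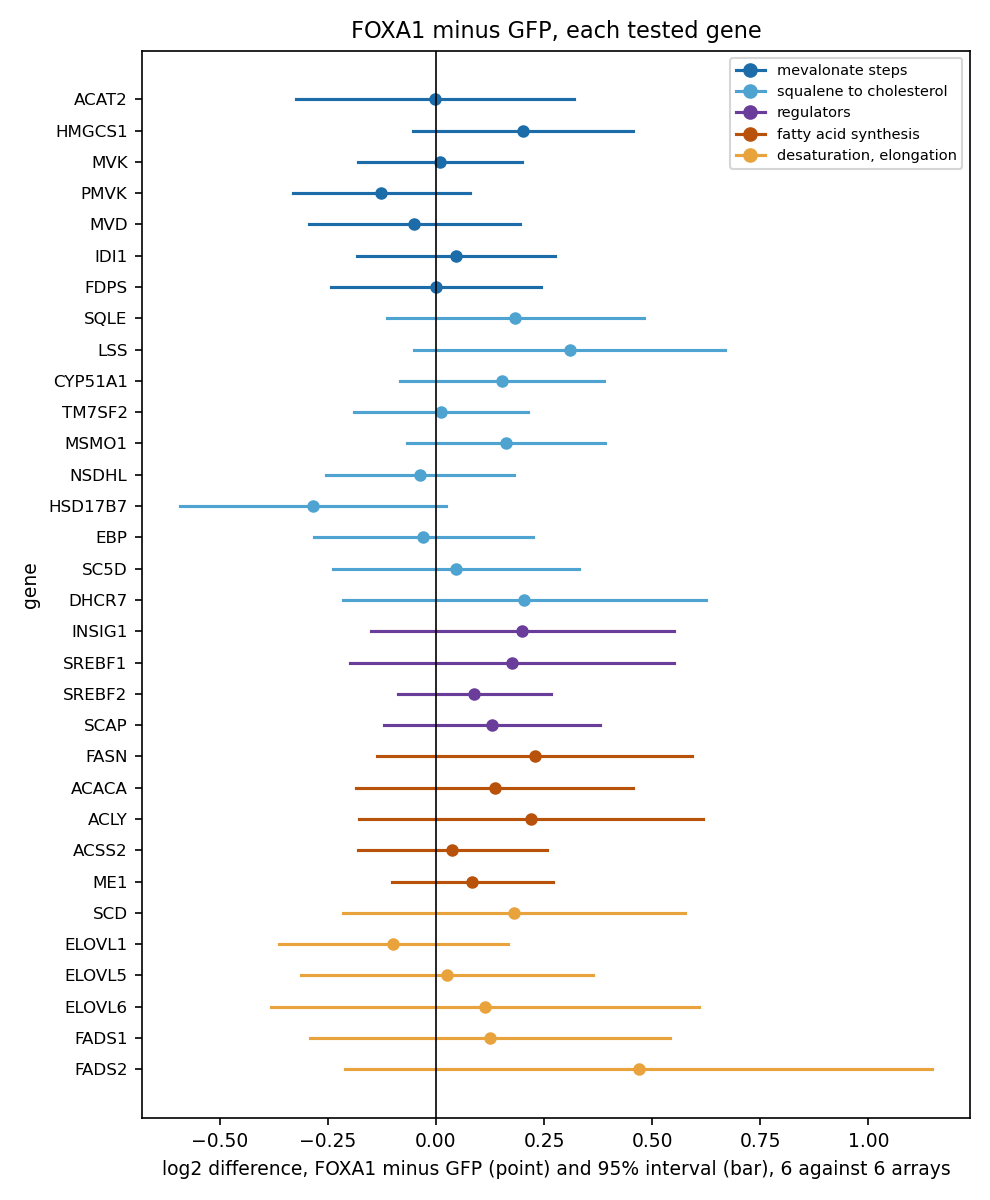
Log2 difference FOXA1 minus GFP for the 32 tested genes (points) with 95% intervals from limma (bars), 6 against 6 arrays, coloured by role. The zero line lies inside every interval, and FADS2 has the widest one, from -0.21 to 1.15.

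Among the 7 mevalonate steps, 3 means were higher and 4 lower on FOXA1 arrays, with a median difference of -0.0002. ACAT2, the cytosolic thiolase that joins acetyl-CoA units and had the highest mean of these probes, read from 11.21 through a median of 11.63 to 11.99 on FOXA1 arrays and from 11.22 through 11.68 to 11.99 on GFP arrays. The groups covered the same span, and the difference was -0.0028 (SE 0.15, limma adjusted p = 1.00, exact permutation p = 0.987). HMGCS1, which makes HMG-CoA, had the highest difference of the mevalonate steps, 0.20 (95% interval -0.05 to 0.46), or 0.13 without FOXA1 4. Its values ran from 11.14 to 11.71 on FOXA1 arrays (median 11.26) and from 10.82 to 11.42 on GFP arrays (median 11.14). PMVK, the phosphomevalonate kinase, had the lowest, -0.13 (95% interval -0.33 to 0.08, and -0.07 without GFP 3), and 3 of 6 FOXA1 values lay under all GFP values. The other members, MVK, which phosphorylates mevalonate, MVD, which decarboxylates it, IDI1, the isopentenyl diphosphate isomerase, and FDPS, the farnesyl diphosphate synthase, had differences between -0.05 and 0.05.

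Of the 10 tested genes from squalene to cholesterol, 7 means were higher and 3 lower, with a median of 0.10. The member with the smallest p of all, HSD17B7, a sterol 3-ketoreductase, was lower on FOXA1 arrays. Its values were 10.68, 10.87 and 11.18 (lowest, median, highest) on FOXA1 arrays and 10.71, 11.15 and 11.69 on GFP arrays. The lowest arrays of the groups were close, and GFP 3 was the highest. The difference was -0.28 (SE 0.14, 95% interval -0.59 to 0.02, limma adjusted p = 1.00, exact permutation p = 0.119), and it was -0.18 without GFP 3. HSD17B7 has pseudogenes of similar sequence, so its probe may read more than one transcript.

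LSS, the lanosterol synthase that closes the sterol rings, had the highest difference of these steps. It read 9.17, 9.54 and 10.20 (lowest, median, highest) on FOXA1 arrays and 8.96, 9.31 and 9.70 on GFP arrays. FOXA1 4 was the highest array and GFP 5 the lowest. The difference was 0.31 (SE 0.17, 95% interval -0.05 to 0.67, limma adjusted p = 1.00, exact permutation p = 0.156), and it was 0.19 without FOXA1 4. SQLE, the squalene epoxidase, CYP51A1, the lanosterol demethylase, MSMO1, the C4 methyl oxidase, and DHCR7, which makes cholesterol from 7-dehydrocholesterol, had differences of 0.18, 0.15, 0.16 and 0.20. SQLE was at 0.09 without GFP 3, CYP51A1 at 0.07 without GFP 5 and DHCR7 at 0.08 without FOXA1 4. TM7SF2, a sterol C14 reductase with the brightest probe of this stretch, read from 12.52 through 12.71 to 12.89 on FOXA1 arrays and from 12.41 through 12.68 to 12.96 on GFP arrays, a difference of 0.01 (95% interval -0.19 to 0.21). NSDHL and EBP, a sterol dehydrogenase and the sterol isomerase, had differences of -0.04 and -0.03.

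SC5D, the lathosterol desaturase, read from 10.81 through 10.95 to 11.34 on FOXA1 arrays and from 10.47 through 11.02 to 11.24 on GFP arrays. The difference was 0.05 (95% interval -0.24 to 0.33), with its lowest array GFP 3 and its highest FOXA1 5.

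All 4 tested regulators had a higher mean on FOXA1 arrays, with a median of 0.15, and none passed the test. INSIG1, the sterol-regulated retention protein and itself an SREBP target, read 11.28, 11.75 and 11.92 (lowest, median, highest) on FOXA1 arrays and 10.88, 11.54 and 11.94 on GFP arrays. The highest values of the groups nearly met and GFP 3 was the lowest array. The difference was 0.20 (SE 0.17, 95% interval -0.15 to 0.55, exact permutation p = 0.327), and it was 0.08 without GFP 3. SREBF1 differed by 0.18 (95% interval -0.20 to 0.55) and SCAP by 0.13 (95% interval -0.12 to 0.38). Without FOXA1 4 these were 0.08 and 0.04. SREBF2, at 7.62 on average, was above background on 4 of 12 arrays, so its difference of 0.09 rests on a signal near the background. STARD4 averaged 7.30, under the filter's 7.41, and differed by -0.01 (exact permutation p = 0.909).

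In the fatty acid arm 10 of 11 means were higher on FOXA1 arrays, with a median of 0.12, and none passed the test. FASN, the fatty acid synthase and the brightest probe among the synthesis genes, read 13.55, 13.93 and 14.74 (lowest, median, highest) on FOXA1 arrays and 13.51, 13.86 and 14.06 on GFP arrays. The medians differed by less than either group's spread, and the top value was FOXA1 4. The difference was 0.23 (SE 0.17, 95% interval -0.14 to 0.59, exact permutation p = 0.294), and it was 0.10 without FOXA1 4. ACLY, which makes cytosolic acetyl-CoA from citrate, differed by 0.22 and ACACA, the acetyl-CoA carboxylase, by 0.14, and without FOXA1 4 by 0.10 and 0.05. ACSS2, which makes acetyl-CoA from acetate, differed by 0.04 and ME1, the malic enzyme that supplies NADPH, by 0.08.

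Among the genes of desaturation and elongation, SCD, the stearoyl-CoA desaturase, read 12.96, 13.57 and 14.20 on FOXA1 arrays and 12.95, 13.51 and 13.75 on GFP arrays. The lowest arrays of the groups were level and FOXA1 3 was the highest, for a difference of 0.18 (95% interval -0.21 to 0.58, exact permutation p = 0.429), which was 0.06 without FOXA1 3 and 0.31 without FOXA1 5. FADS1, the delta-5 desaturase, read 10.15, 10.82 and 11.30 on FOXA1 arrays and 10.10, 10.70 and 11.08 on GFP arrays, a difference of 0.12 (95% interval -0.29 to 0.54), which was 0.015 without GFP 5, 0.018 without FOXA1 3 and 0.25 without FOXA1 5. FADS2, the delta-6 desaturase, spread most of all members, from 8.39 on GFP 2 to 10.34 on FOXA1 4. Its group medians were 9.50 on FOXA1 arrays and 9.01 on GFP arrays, and the difference was 0.47 (SE 0.32, exact permutation p = 0.253).

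The 3 elongases had differences between -0.10 and 0.11. ELOVL1, which extends very long chains, was the one member of the fatty acid arm with a lower mean on FOXA1 arrays, -0.10 (95% interval -0.36 to 0.17), but -0.0096 without FOXA1 3. It read 9.31, 9.85 and 10.03 on FOXA1 arrays and 9.60, 9.86 and 10.12 on GFP arrays. ELOVL5, which extends polyunsaturated chains, differed by 0.03 and ELOVL6, which extends palmitate, by 0.11. ELOVL6 was lowest on FOXA1 5 and GFP 5, at 9.29 and 9.25.

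**Figure D2:**
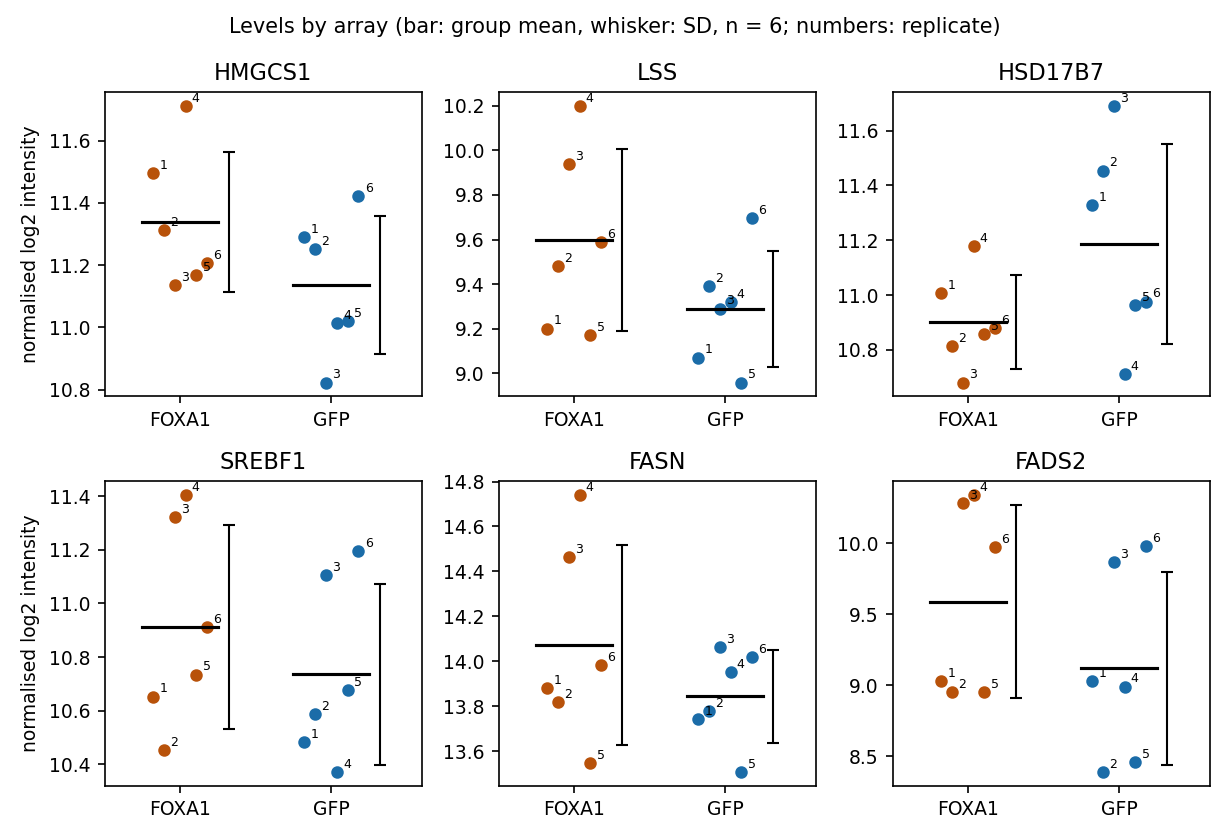
Normalised log2 intensity of 6 genes on each of the 12 arrays, 6 FOXA1 and 6 GFP, each point 1 array labelled by replicate number horizontal lines the group means and whiskers the SD. The groups overlap for each gene shown, and FADS2 spans 1.95 log2 units.

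The second question was how the members varied from array to array, whatever the group. The median SD within a group was 0.35 for the fatty acid arm, 0.21 for the sterol arm and 0.18 for all genes tested. For each arm a mean was taken over its genes of the deviation from the gene's own mean over 12 arrays. The sterol arm mean ran from -0.20 on GFP 5 to 0.15 on FOXA1 4, a 1.28-fold span. The fatty acid arm mean ran from -0.39 on GFP 5 to 0.40 on FOXA1 3, a 1.73-fold span. Between groups the sterol arm mean was 0.02 ± 0.10 on FOXA1 arrays against -0.02 ± 0.11 on GFP arrays, and the fatty acid arm mean 0.07 ± 0.28 against -0.07 ± 0.17 (SD, n = 6 each), so both differences were smaller than the spread.

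**Figure D3:**
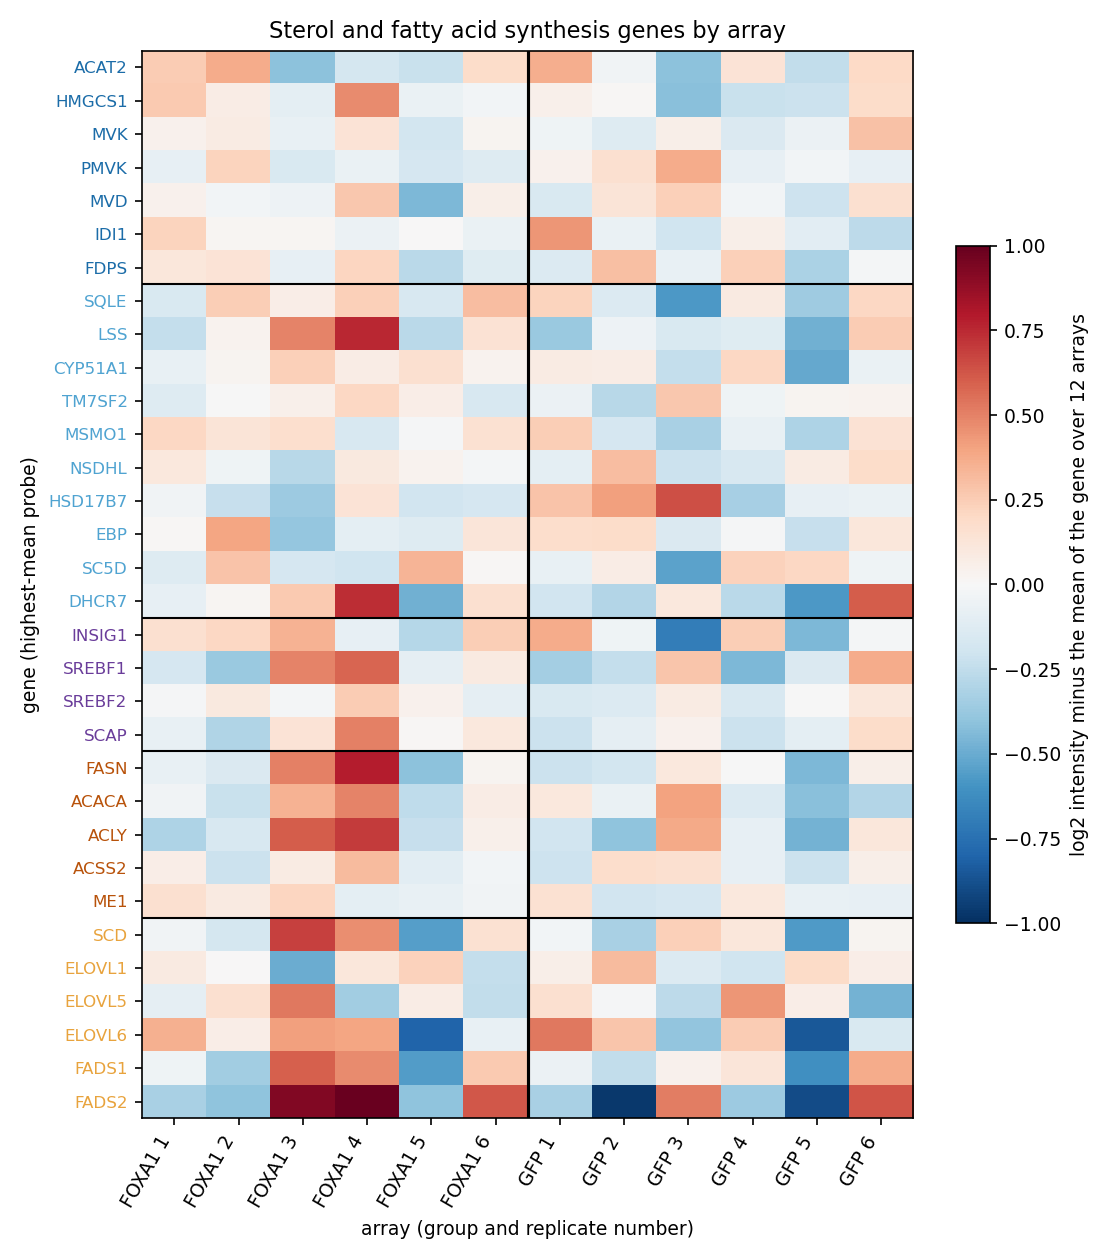
Deviation of each of the 32 genes (rows, by role) from its own mean over 12 arrays, in log2 units, on each array (columns, FOXA1 then GFP), with red above and blue below that mean. Most fatty acid genes are high on FOXA1 3 and FOXA1 4 and low on FOXA1 5 and GFP 5, while sterol genes vary less.

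On FOXA1 3, 10 of 11 fatty acid genes were above their own mean but 7 of 17 sterol genes were. On FOXA1 4 the counts were 9 of 11 and 11 of 17. On GFP 5 they were 2 of 11 and 3 of 17, and on FOXA1 5 they were 2 of 11 and 5 of 17. FOXA1 2 showed the opposite order, with 13 of 17 sterol genes and 4 of 11 fatty acid genes above their mean.

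Across the 12 arrays the arm means correlated with a Pearson r of 0.504 and a Spearman rho of 0.336, given as a description. All points share the normalisation, and the arms share no gene. Within groups r was 0.394 on FOXA1 arrays and 0.610 on GFP arrays. With 1 array left out r ran from 0.266 (without GFP 5) to 0.699 (without FOXA1 3). Without GFP 5 and FOXA1 5, the arrays farthest from the median of the sterol arm, it was -0.0081. The value over 12 arrays therefore depended on those 2 arrays. Both lie at the low end of the sterol arm, so leaving them out also narrows the spread that r rests on. The mevalonate steps and the later steps of the sterol arm had an r of 0.666 with each other, and fatty acid synthesis had 0.908 with desaturation and elongation. Whether these values differ from that between the arms was not tested.

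**Figure D4:**
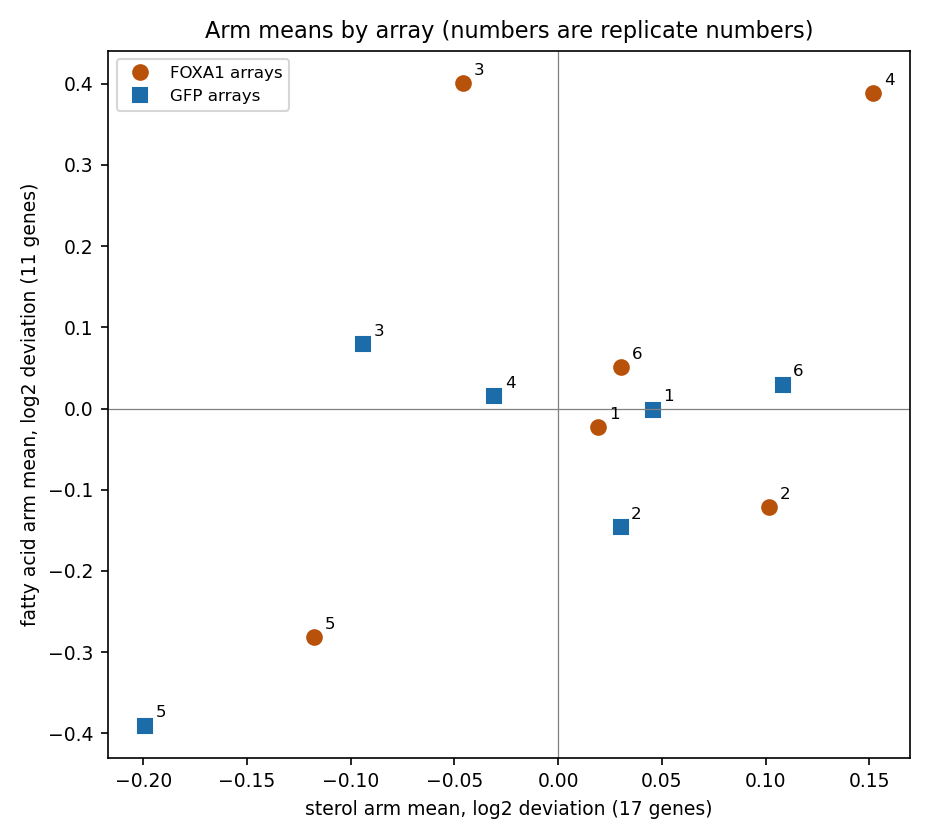
Mean log2 deviation of 17 sterol genes (x) and 11 fatty acid genes (y) on each array, labelled by replicate number. GFP 5 and FOXA1 5 are low on both axes and FOXA1 4 is high on both, while FOXA1 3 is high on the y axis alone.

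The fatty acid arm also moved with the array-wide pattern of expression. The leading component of the genes outside the members held 39% of their variance and was highest on GFP 3, FOXA1 4 and FOXA1 3. Its r was 0.773 with the fatty acid arm mean and 0.161 with the sterol arm mean, and its part in the fatty acid pattern was not tested. An r over 0.5 with the fatty acid arm was common, in 18.9% of the genes outside the members against 7.31% for the sterol arm. Raw array medians had an r of 0.421 with the fatty acid arm and 0.174 with the sterol arm.

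Taking each gene against its arm without itself, 8 of 11 fatty acid members (72.7%) and 6 of 17 sterol members (35.3%) had an r over 0.5. SCD followed its arm most closely, with an r of 0.967, then FASN with 0.940 and FADS1 with 0.908. In the sterol arm HMGCS1 (0.718), SQLE (0.670) and DHCR7 (0.571) were highest. At the other end ELOVL1 had -0.681 with the fatty acid arm, and SC5D and TM7SF2 had -0.276 and -0.222 with the sterol arm. ELOVL1 therefore ran against its arm. With that arm the genes outside the members had a lower quartile of -0.305 and a lowest r of -0.951. SC5D and TM7SF2 were near -0.217, the lower quartile of the genes outside the members with the sterol arm, so such values were common among all genes.

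Some sterol genes tracked the fatty acid arm more closely than their own, but a high r with that arm was no more common among them than elsewhere. An r over 0.5 with it was found for 3 of 17 sterol members (17.6%) and for 18.9% of the genes outside the members. LSS had an r of 0.831 with the fatty acid arm and 0.458 with the sterol arm, and DHCR7 had 0.803 and 0.571. LSS and FASN correlated with an r of 0.910 (0.957 within FOXA1 arrays and 0.745 within GFP arrays). SC5D went the other way, with -0.637 against the fatty acid arm. LSS, DHCR7 and SC5D also followed the leading component, with r of 0.691, 0.741 and -0.787.

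The regulators were set against both arm means, and whether the r values with the arms differ was not tested. SREBF1 had an r of 0.690 with the fatty acid arm and 0.180 with the sterol arm, but the first was 0.892 within FOXA1 arrays and 0.282 within GFP arrays, and SREBF1 had 0.885 with the leading component. SCAP had 0.623 and 0.277 (0.718 and 0.233 within FOXA1 arrays, 0.216 and 0.231 within GFP arrays), and 0.759 with the leading component. INSIG1 had 0.354 with the fatty acid arm (0.393 within FOXA1 arrays and 0.252 within GFP arrays). With the sterol arm it had 0.527 (0.197 within FOXA1 arrays and 0.656 within GFP arrays), so the order was reversed within FOXA1 arrays. INSIG1 had 0.826 with MSMO1 (0.752 within FOXA1 arrays and 0.825 within GFP arrays). With SQLE it had 0.806, but 0.398 within FOXA1 arrays, 0.926 within GFP arrays and 0.433 without GFP 3 and GFP 5. SREBF2, dim as it was, had 0.290 with the fatty acid arm and 0.295 with the sterol arm.

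**Figure D5:**
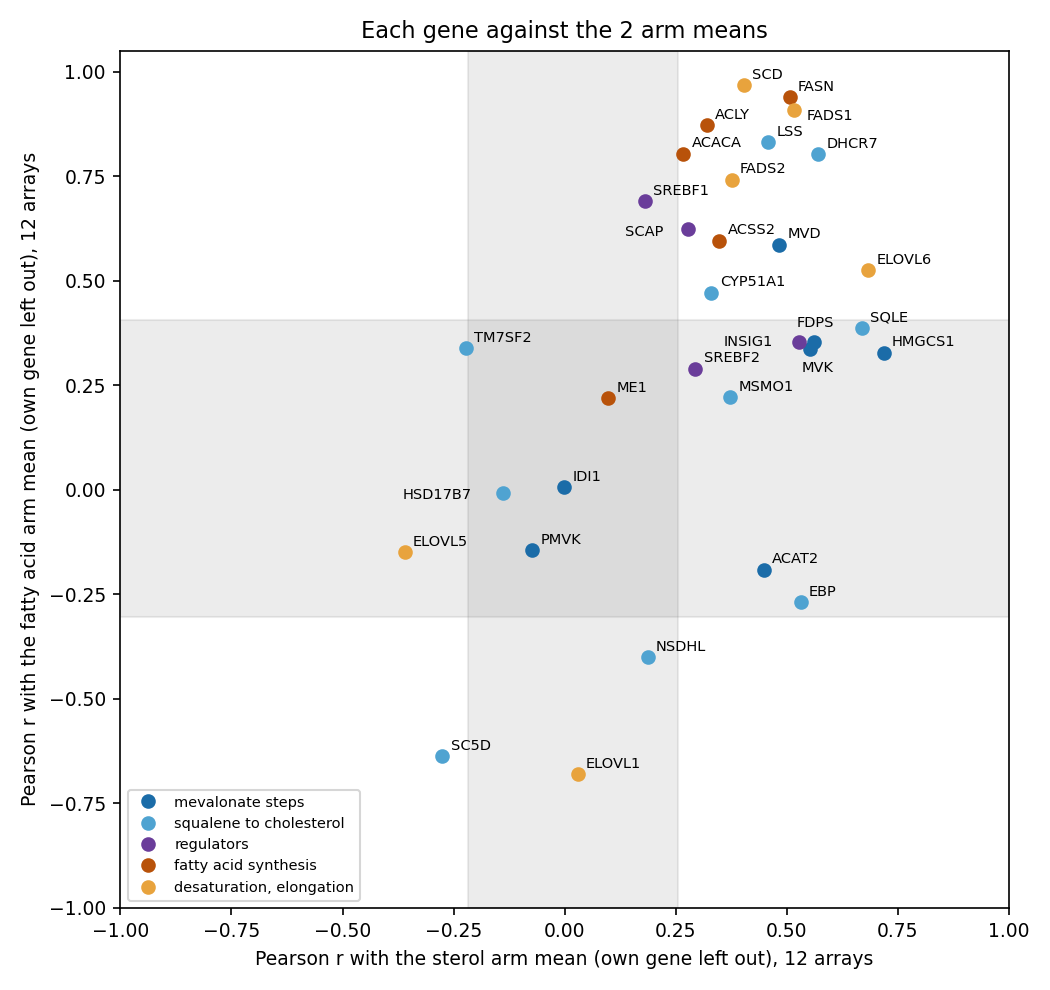
Pearson r over 12 arrays of each of the 32 genes with the sterol arm mean (x) and the fatty acid arm mean (y), own gene left out, with grey bands from the lower to the upper quartile of the genes outside the members. SCD, FASN and FADS1 lie at the top, LSS and DHCR7 are sterol genes near them, and ELOVL1 and SC5D lie at the bottom.

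Between single genes the median r was 0.325 over 55 pairs within the fatty acid arm, 0.161 over 136 pairs within the sterol arm, 0.120 over 187 pairs between the arms and 0.005 over all pairs of tested genes. FASN and ACLY had 0.924, and FASN and SCD had 0.908. Genes are not independent replicates, and every pair shares the same 12 arrays.

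Further probes were available for 11 members, and they did not always track the first. Of 9 further probes above background on all 12 arrays, 7 had an r over 0.7 with the first, among them SREBF1 (0.95), DHCR7 (0.93) and ACLY (0.91). The exceptions were both of MSMO1. Its second probe spread over 2.14 log2 units, from 8.07 on FOXA1 4 to 10.21 on FOXA1 1, had an r of 0.40 with the first probe and of -0.949 with the leading component, and differed by -0.04 between groups. The dimmest MSMO1 probe had an r of -0.147 with the first and differed by 0.03. ACACA (0.08) and ACLY (0.21), the same enzymes read by their second probes, differed in the direction of the first.

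The genes outside the members most like the sterol arm mean across the 12 arrays were SKA1 (r = 0.904), NAE1 (0.893), ATL1 (0.880), CCT3 (0.879), MCM4 (0.878), MCM6 (0.876), MYD88 (0.874), URB2 (0.865), DDX39A (0.860) and EXOSC6 (0.856). SKA1 is a kinetochore protein and MCM4 and MCM6 are subunits of the replicative helicase. None of the 10 is a gene of lipid synthesis.

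Of 43 related lipid genes (sterol transport and esterification, SREBP processing, acyl-CoA synthesis and glycerolipid assembly), 32 were tested, with 24 means higher and 8 lower, a median difference of 0.04 and 0 past the threshold (limma, 0 of 32 at an unadjusted p under 0.05). The smallest p among the higher ones was that of ACSL4, an acyl-CoA synthetase, at 0.15 (95% interval -0.05 to 0.36, above background on 4 of 12 arrays), and among the lower ones that of ERLIN2, a regulator of sterol sensing in the endoplasmic reticulum, at -0.13 (95% interval -0.34 to 0.09). Across arrays NPC1, which exports lysosomal cholesterol, had an r of 0.780 with the sterol arm, while NPC2 had -0.344 and LIPA -0.302. INSIG2, the relative of INSIG1, had 0.838 with the fatty acid arm. MBTPS1, the first protease that cleaves SREBPs, had 0.832 with it, while MBTPS2 had 0.0073. NPC1, INSIG2 and MBTPS1 were named for their high r. Among the genes outside the members, 7.31% had an r over 0.5 with the sterol arm and 18.9% with the fatty acid arm.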

How the data were processed

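RNA of 12 LNCaP samples was read on bead arrays. The authors deposited a table that its header calls non-normalized (48107 probes) and a normalized one (47323 probes), and both hold log2 values, judged from the values. Probe ranks within an array are the same in both deposited tables to within 0.5, and the normalized column medians lie between 7.428 and 7.429. Which programs made them is not stated in the sources. Of the normalized probes, 30113 had 1 symbol in the platform annotation, 8 several and 17202 are unlisted. The 784 probes present in the non-normalized table alone have no stated role, and their 95th percentile served as background. Left out were 6 probes with a missing value.

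Probes with a mean over all 12 arrays above the median of all probes (7.41) were kept, and the probe with the highest mean stood for each gene. Groups, from the titles, entered a limma fit (version 3.58.1, under R 4.3.3; lmFit, eBayes, two-sided, Benjamini-Hochberg over 12420 genes, threshold 0.05), which was tested on simulated data. Exact permutation tests used all 924 arrangements (smallest p 0.00216). Precision is limited by the number of arrays. Correlations are descriptions without a p. Named were all members, with values for the brightest member of each role, the smallest p, the 3 highest and 3 lowest correlations with the own arm, and the 10 outside genes most like the sterol arm. Other names, such as LSS, FADS2 and the related lipid genes, were chosen after their values were seen. The members, lists and alternatives were chosen with earlier results of these data known. Alternatives covered normalization, filter, probe choice, variance model, array weights, the replicate block and left-out arrays.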

Additional observations from a re-analysis of the deposited data

Results flagged for a closer look

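In 3 of 94 groups of 6 arrays tested for a stray value, 1 array stood apart from the others of its group, and about 1 in 20 groups does so by chance. PMVK read 10.98 on FOXA1 2, above the next FOXA1 array at 10.69. IDI1 read 10.31 on FOXA1 1, above the next FOXA1 array at 10.11. The second probe of ELOVL6 read 8.34 on FOXA1 5, below the next FOXA1 array at 8.99, and the first ELOVL6 probe was also lowest of the FOXA1 arrays there.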

How the results depend on the processing

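Over the 21 alternatives to the gene-level fit, limma called 0 genes and 0 members in each, with between 79 genes (upper-quartile filter) and 508 genes (no filter) at an unadjusted p under 0.05, and the smallest adjusted p of a member was 0.989. The members' median difference stayed above 0, from 0.03 without GFP 3, FOXA1 3 and FOXA1 4 together to 0.13 under median centring, and from 0.06 (without FOXA1 4) to 0.12 (without GFP 1) when 1 array was left out. Median centring put 28 of 32 means higher on FOXA1 arrays in place of 24. Of 32 members, 19 kept their sign in every alternative that held them (16 higher, 3 lower) and 13 did not; the cause was not tested. SREBF2 was not tested under the upper-quartile filter. Leaving out 1 array moved the difference from -0.085 to 0.080 for ACAT2, -0.019 to 0.068 for MVK, -0.11 to 0.035 for MVD, -0.00049 to 0.14 for IDI1, -0.063 to 0.060 for FDPS, -0.043 to 0.066 for TM7SF2, -0.083 to 0.022 for NSDHL, -0.11 to 0.045 for EBP, -0.056 to 0.098 for SC5D, -0.021 to 0.085 for ACSS2, -0.077 to 0.117 for ELOVL5 and -0.045 to 0.285 for ELOVL6. Under median centring the sign turned for ACAT2 (0.037), MVD (0.012), FDPS (0.067), TM7SF2 (-0.0021), NSDHL (0.020) and EBP (0.015), and under renewed quantile normalization for FDPS (0.0012). Array weights turned ACAT2 (0.014), EBP (0.0088) and ELOVL5 (-0.062), and the mean over probes turned ACSS2 (-0.016). Without the 3 arrays above, it turned for ACAT2 (0.063), EBP (0.053), ACSS2 (-0.015), ELOVL5 (-0.064), ELOVL6 (-0.13) and FADS1 (-0.091).

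The r between the arm means was -0.0081 without the 2 arrays farthest from the median of the sterol arm, between 0.266 (without GFP 5) and 0.699 (without FOXA1 3) without 1 array, 0.351 with the mean over probes, 0.717 under median centring and 0.785 without GFP 3, FOXA1 3 and FOXA1 4. It was 0.296 with the mevalonate steps alone as the sterol arm. With the leading component removed it was 0.605 and without FADS2 0.514, both alternatives chosen after seeing the data. The labels do not say whether same-numbered FOXA1 and GFP arrays belong together. The correlations of their deviations were 0.205, 0.2695, 0.531, -0.268, 0.639 and 0.2455 for replicates 1 to 6. Of 6 FOXA1 arrays, 2 correlated best with their own number. GFP 5 and FOXA1 5, without which the r between the arms was -0.0081, share a number, and whether they share more was not tested. With the replicate number as a block, limma called 0 genes, and 335 of 12420 genes were at an unadjusted p under 0.05. Among them were 2 of 32 members, LSS (difference 0.309, SE 0.120) and FADS2 (0.469, SE 0.145). The limma adjusted p with the block was 0.998 for both. The r between the arms with the block was 0.792.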

Other observations

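Some further values were chosen after they were seen. TKT, the transketolase of the pentose phosphate pathway, had the highest r with the fatty acid arm mean among the genes outside the members, 0.959 over 12 arrays. SLC25A1, the mitochondrial citrate carrier, had 0.755, TECR, the last enzyme of the very long chain elongation cycle, had 0.726, and MID1IP1, which promotes polymerisation of acetyl-CoA carboxylase, had 0.731. MYLIP, the ligase that degrades the LDL receptor, had -0.569 with the sterol arm and -0.584 with the fatty acid arm. NR1H3, which encodes LXR alpha, had -0.132 with the sterol arm and -0.583 with the fatty acid arm. ABCG1, another of the related lipid genes, had -0.330 with the sterol arm and 0.428 with the fatty acid arm. The dimmest ACSS2 probe, not above background on any array, read 0.16 higher on FOXA1 arrays (exact permutation p = 0.0281), and the dimmest ACACA probe, also not above background on any array, 0.17 higher (exact permutation p = 0.0498). They are 2 of the 50 member probes and neither p is adjusted.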
